A study of Mus musculus with 12 samples.

Results

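The genes described here are 10 genes of innate sensing and inflammatory cell death, chosen by symbol from a list: the Toll-like receptors Tlr2, Tlr3 and Tlr4, the co-receptor Cd14, the adaptor Myd88, the inflammasome sensor Nlrp3, the caspases Casp1 and Casp4, the pore protein Gsdmd and the cytokine Il1b. All 10 were present among the 15672 genes of the deposited table, and all 10 were among the 14147 genes tested, which had a log2 CPM above 0 in at least 3 libraries. CPM (counts scaled to a common library size) is given as its log2, as deposited. The tissue was medulloblastoma, a tumour of the cerebellum, taken from mice at end point, and 12 bulk RNA libraries were made from it. YSGr tumours had the genotype fYap1;fSMO-M2;hGFAPcre and carry the label rescued, whose meaning is not explained there, and they comprised 3 females (libraries 10, 11 and 12) and 3 males (libraries 7, 8 and 9). SG tumours had the genotype fSMO-M2;hGFAPcre and comprised 3 females (libraries 4, 5 and 6) and 3 males (libraries 1, 2 and 3). Both groups therefore carry a conditional SMO-M2 allele, a constitutively active Smoothened that switches on Hedgehog signalling, and Cre recombinase under the human GFAP promoter, which is active in neural progenitors and astrocytes, and the floxed Yap1 allele is what YSGr has in addition. No age, and no statement that the libraries of a group came from separate animals, was found in the labels, so p-values measure only how far these samples scatter, part of which may be technical.

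Toll-like receptors recognise conserved microbial molecules and products of damaged cells, and most of them pass the signal through the adaptor Myd88 to NF-kB, which drives the transcription of cytokine genes. Inflammasomes are cytosolic complexes in which a sensor such as Nlrp3 activates caspase-1, which matures interleukin-1 beta and cleaves gasdermin D into a pore-forming fragment. Mouse Casp4 encodes the caspase known as caspase-11, which binds bacterial lipopolysaccharide in the cytosol and also cleaves gasdermin D. In the brain these genes are best known from microglia and from macrophages and neutrophils that enter from the blood, and astrocytes and endothelial cells express some of them. In bulk tissue, fewer cells of a type and less RNA per cell cannot be told apart.

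Libraries held 8854773 to 9478661 estimated reads, so that 1 read was worth 0.100 to 0.111 CPM. Yap1, the targeted gene, had 7 to 33 estimated reads per YSGr library, against 174 to 253 per SG library, and its log2 fold change was -3.64 (SE 0.20, limma adjusted p = 1.1e-06). YSGr females had 7 to 12 of these reads and YSGr males 14 to 33, with log2 fold changes of -4.32 and -2.96. Within YSGr, females were below males by -1.18 (SE 0.29), which did not pass (limma adjusted p = 0.142). In a principal component analysis over all tested genes, YSGr male 8 stood farthest out on the first component (38.3% of the variance), at 74.5, while YSGr female 12 lay among the SG libraries there, at -23.5, against -44.5 to -12.3 in SG. YSGr females 10 and 12 stood apart on the second component (18%), at -42.5 and -45.5, and SG male 2 on the third (12.3%), at -57. Markers of granule neuron progenitors, the cells from which Hedgehog medulloblastoma arises, summed to 4250 to 7060 CPM in YSGr and to 5810 to 7190 CPM in SG, and none of the 12 markers was at 0 reads throughout either genotype.

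The promoters of 4 genes that were higher in YSGr are shown for their sequence: Il1b and Casp4, which had the 2 largest differences of the 10, and Tlr2 and Myd88, a receptor and the adaptor it signals through. Each is a 300-base window of the RefSeq table of build GRCm38.p6, from 250 bases before the annotated start to 50 bases after it, written 5′ to 3′ on the strand of the gene. For Casp4, window 1 of 2 is shown, and the other, at chr9:5308610-5308909, overlaps it. The windows are chr2:129371090-129371389 on the minus strand for Il1b, chr9:5308599-5308898 on the plus strand for Casp4, chr3:83841559-83841858 on the minus strand for Tlr2 and chr9:119339969-119340268 on the minus strand for Myd88. Capitals mark every match, on either strand, to a motif that was searched.
Il1b promoter: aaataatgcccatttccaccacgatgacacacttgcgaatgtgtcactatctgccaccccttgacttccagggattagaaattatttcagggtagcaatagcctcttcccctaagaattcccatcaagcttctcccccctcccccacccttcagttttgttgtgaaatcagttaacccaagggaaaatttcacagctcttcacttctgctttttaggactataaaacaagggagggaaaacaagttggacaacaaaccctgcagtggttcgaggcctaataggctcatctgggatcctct
Casp4 promoter: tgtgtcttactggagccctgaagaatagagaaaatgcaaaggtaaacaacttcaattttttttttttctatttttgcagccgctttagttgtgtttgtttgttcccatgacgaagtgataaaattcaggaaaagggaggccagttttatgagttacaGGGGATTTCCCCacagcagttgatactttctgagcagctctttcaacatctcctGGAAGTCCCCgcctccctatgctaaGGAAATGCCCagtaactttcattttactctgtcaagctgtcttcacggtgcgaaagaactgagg
Tlr2 promoter: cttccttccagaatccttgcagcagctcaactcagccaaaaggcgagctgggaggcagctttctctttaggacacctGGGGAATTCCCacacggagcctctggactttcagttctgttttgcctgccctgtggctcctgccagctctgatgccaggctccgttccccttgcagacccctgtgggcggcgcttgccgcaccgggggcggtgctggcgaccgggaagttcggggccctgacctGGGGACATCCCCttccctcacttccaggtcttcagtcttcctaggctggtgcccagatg
Myd88 promoter: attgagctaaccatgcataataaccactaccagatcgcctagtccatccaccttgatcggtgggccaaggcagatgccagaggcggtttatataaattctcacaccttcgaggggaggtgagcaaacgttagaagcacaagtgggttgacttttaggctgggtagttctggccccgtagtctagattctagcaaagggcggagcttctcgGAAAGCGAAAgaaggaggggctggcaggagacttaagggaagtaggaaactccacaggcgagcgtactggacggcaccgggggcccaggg

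Windows were found for 7 of the 10 genes, those 4 and Tlr3, Casp1 and Nlrp3. Casp4 and Nlrp3 had 2 windows each. A gene was counted if any of its windows held a match, while the shares given are of single windows. A match to the NF-kB motif, written as GGGNNNNNCC, was present in 5 of the 7, namely Tlr2, Tlr3, Casp1, Casp4 and Nlrp3, against 50.8% of the 32851 promoter windows of the table. Casp4 held 5 such matches, some of which overlap in 1 run of capitals, and Tlr2 also held 5. The Il1b window held no match to any of the motifs searched. The capitals of Myd88 are a match to the interferon-stimulated response element, written as GAAANNGAAA, which starts 40 bases before the annotated start used for the window and which 3.44% of all windows hold. That start lies inside the span of Myd88 given below, and not at its end. A C/EBP match (TTGCNNAA, 10.8% of windows) occurred in Tlr3 alone, and PU.1 matches (GAGGAA, 28.3% of windows) in Casp1 and in 1 of the 2 windows of Nlrp3. None of the 7 held AP-1 (TGANTCA, 7.81% of windows) or the TEAD motif (GGAATG, 14.7% of windows), to which Yap1 binds through TEAD factors. These matches are letters in a window and were not measured as binding sites.

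The question of the main comparison was how YSGr tumours differed from SG tumours when the sexes are weighted equally. Of the 10 genes, 7 rose and 0 fell at an adjusted p under 0.05 in limma with Benjamini-Hochberg adjustment over all 14147 genes. They were Tlr2, Tlr4, Cd14, Myd88, Casp1, Casp4 and Il1b, while Tlr3, Nlrp3 and Gsdmd did not pass, and Il1b had entered the test only through its YSGr libraries. Among all genes tested, 871 or 6.16% were called higher in YSGr. The median log2 fold change of the 10 genes was 1.10, and that of all genes was -0.005. The 10 were chosen with earlier results of these data known, so setting them beside all genes is a description and no test. All 6 YSGr libraries lay above all 6 SG libraries for 6 of the genes, those called without Tlr4, and this was so for 415 of all genes, or 2.93%.

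**Figure D1:**
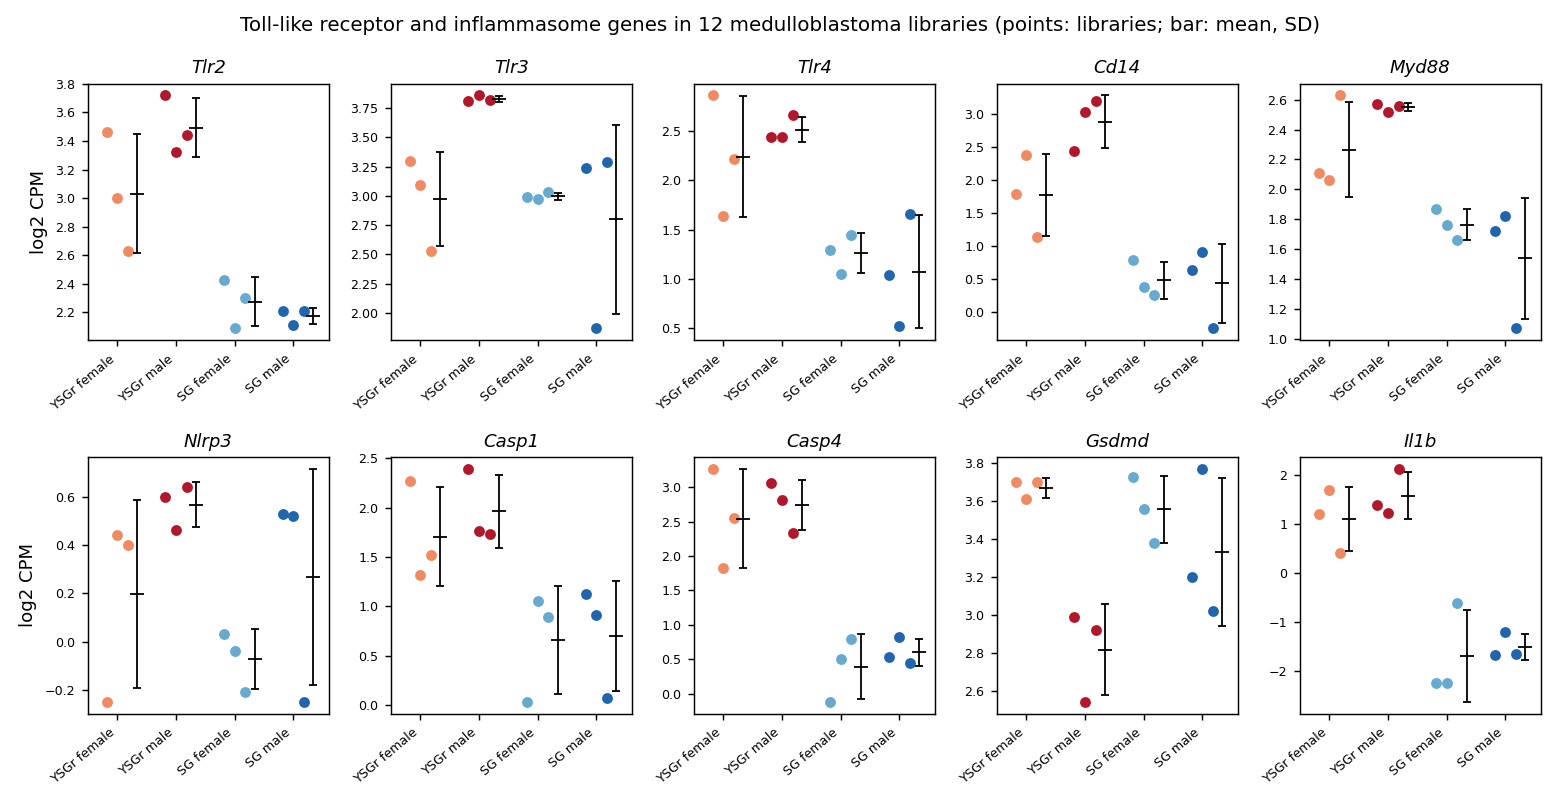
Log2 CPM of each gene in each library (points), with the mean and SD of the 3 libraries of each group (bars), for YSGr females, YSGr males, SG females and SG males; each panel has its own vertical scale. Tlr2, Cd14, Myd88, Casp1, Casp4 and Il1b had every YSGr library above every SG library, whereas the groups overlapped for Tlr3, Tlr4, Nlrp3 and Gsdmd.

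Among the surface sensors, Tlr2, which recognises bacterial lipoproteins (chromosome 3, 83836272 to 83841767, ENSMUSG00000027995.10), was higher in YSGr in both sexes. It stood at 3.46, 3.00 and 2.63 log2 CPM in YSGr females 10, 11 and 12 and at 3.72, 3.32 and 3.44 in YSGr males 7, 8 and 9, against 2.43, 2.09 and 2.30 in SG females 4, 5 and 6 and 2.21, 2.11 and 2.21 in SG males 1, 2 and 3. The lowest YSGr library, female 12, was above the highest SG library, female 4, and the spread within YSGr was wider (mean 3.26 ± 0.39 in YSGr and 2.22 ± 0.13 in SG, SD, n = 6 each). The log2 fold change was 1.04 (SE 0.17, limma adjusted p = 0.00194), and the mean CPM was 2.16 times that of SG.

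Tlr4, the receptor for lipopolysaccharide (chromosome 4, 66827584 to 66930284, ENSMUSG00000039005.13), stood at 2.86, 1.64 and 2.22 log2 CPM in YSGr females and at 2.44, 2.44 and 2.66 in YSGr males, against 1.29, 1.05 and 1.45 in SG females and 1.04, 0.52 and 1.66 in SG males. The genotypes overlapped by 2 libraries, YSGr female 11 and SG male 3, which nearly coincided. The mean was 2.38 ± 0.42 in YSGr and 1.17 ± 0.40 in SG (SD, n = 6 each), and the log2 fold change was 1.21 (SE 0.25, limma adjusted p = 0.00772).

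Cd14, which hands lipopolysaccharide to Tlr4 and also serves Tlr2 (chromosome 18, 36725067 to 36726798, ENSMUSG00000051439.7), differed most among the sensors. Its values were 1.79, 2.38 and 1.14 log2 CPM in YSGr females and 2.44, 3.03 and 3.20 in YSGr males, against 0.79, 0.38 and 0.26 in SG females and 0.63, 0.91 and -0.25 in SG males. Every YSGr library was above every SG library, and within YSGr all 3 females were below all 3 males. In reads this was 18 to 87 per YSGr library, against 6 to 15 per SG library. The log2 fold change was 1.88 (SE 0.28, limma adjusted p = 0.00122), the ratio of mean CPM was 4.48, and Cd14 ranked 86 of 14147 genes from the highest fold change.

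Tlr3, an endosomal receptor for double-stranded RNA that signals through an adaptor other than Myd88 (chromosome 8, 45395665 to 45411080, ENSMUSG00000031639.12), did not pass the threshold. It stood at 3.3, 3.09 and 2.53 log2 CPM in YSGr females and at 3.81, 3.86 and 3.82 in YSGr males, against 2.99, 2.97 and 3.03 in SG females and 3.24, 1.87 and 3.29 in SG males. The YSGr females overlapped with SG, while the 3 YSGr males were nearly equal and above all other libraries. The averaged log2 fold change was 0.50 (SE 0.23, limma adjusted p = 0.177), and without SG male 2 it was 0.27 (adjusted p = 0.233). With library weights, which give less weight to libraries that stand apart, Tlr3 passed (0.40, adjusted p = 0.0229). That setting called 2448 of all 14147 genes higher, against 871 in the main fit. An antisense gene, Gm45542, overlaps Tlr3, and without a stated use of strand in the counting the reads of the 2 cannot be told apart.

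Myd88, the adaptor of most Toll-like receptors and of the interleukin-1 receptor (chromosome 9, 119335934 to 119341411, ENSMUSG00000032508.8), had the smallest difference of the 7 genes called. It stood at 2.11, 2.06 and 2.63 log2 CPM in YSGr females and at 2.57, 2.52 and 2.56 in YSGr males, against 1.87, 1.76 and 1.66 in SG females and 1.72, 1.82 and 1.07 in SG males. The genotypes did not overlap, and SG male 3 lay below the other SG libraries. The log2 fold change was 0.76 (SE 0.18, limma adjusted p = 0.0199). The call was lost without SG female 5 (0.75, adjusted p = 0.0524), without SG female 6 (0.73, adjusted p = 0.0590) and after quantile normalization (0.61, adjusted p = 0.0736). Myd88 overlaps Acaa1a on the opposite strand and Slc22a14 on its own, so part of its reads could come from those genes.

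The inflammasome genes split between the caspases, which rose, and the sensor, which was low in both genotypes. Nlrp3, a sensor of cellular stress and ion loss (chromosome 11, 59541568 to 59566956, ENSMUSG00000032691.14), had 6 to 13 estimated reads per YSGr library and 6 to 12 per SG library. Its values were -0.25, 0.44 and 0.40 log2 CPM in YSGr females and 0.60, 0.46 and 0.64 in YSGr males, against 0.03, -0.04 and -0.21 in SG females and 0.53, 0.52 and -0.25 in SG males. The genotypes overlapped, and the log2 fold change of 0.28 (SE 0.25, limma adjusted p = 0.473) was about as large as its error. Without SG male 3 it was 0.15 (adjusted p = 0.717).

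Casp1, which encodes the effector caspase of the inflammasome (chromosome 9, 5298517 to 5307265, ENSMUSG00000025888.5), stood at 2.27, 1.32 and 1.52 log2 CPM in YSGr females and at 2.39, 1.76 and 1.73 in YSGr males, against 0.03, 1.05 and 0.89 in SG females and 1.12, 0.91 and 0.07 in SG males. All YSGr libraries were above all SG libraries, with the smallest gap between YSGr female 11 and SG male 1. The log2 fold change was 1.15 (SE 0.28, limma adjusted p = 0.0193). The call was lost without SG female 4 (1.00, adjusted p = 0.0502), without YSGr female 10 (1.01, adjusted p = 0.0526) and after quantile normalization (0.96, adjusted p = 0.0531).

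Casp4, its neighbour on the same strand (chromosome 9, 5308828 to 5336783, ENSMUSG00000033538.13), differed more. It stood at 3.26, 1.82 and 2.55 log2 CPM in YSGr females and at 3.06, 2.81 and 2.34 in YSGr males, against -0.12, 0.50 and 0.80 in SG females and 0.53, 0.82 and 0.45 in SG males. The lowest YSGr library, female 11 at 1.82, was well above the highest SG library, male 2 at 0.82. In reads this was 32 to 89 per YSGr library, against 7 to 14 per SG library. The log2 fold change was 2.14 (SE 0.27, limma adjusted p = 0.00040), the ratio of mean CPM was 5.16, and the gene ranked 55 of 14147.

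Gsdmd, whose product makes the pore (chromosome 15, 75862327 to 75867408, ENSMUSG00000022575.5), was the gene of the 10 whose averaged fold change was below 0. It stood at 3.70, 3.61 and 3.70 log2 CPM in YSGr females and at 2.99, 2.54 and 2.92 in YSGr males, against 3.73, 3.56 and 3.38 in SG females and 3.20, 3.77 and 3.02 in SG males. The YSGr females lay within the range of SG, and the 3 YSGr males were the lowest of the 12 libraries. The averaged log2 fold change was -0.20 (SE 0.16, limma adjusted p = 0.424), and it was -0.09 without SG male 2 and -0.13 without YSGr male 8.

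Il1b, which encodes interleukin-1 beta (chromosome 2, 129364570 to 129371139, ENSMUSG00000027398.13), had the largest difference of the 10. Its values were 1.21, 1.69 and 0.40 log2 CPM in YSGr females and 1.39, 1.22 and 2.12 in YSGr males, against -2.24, -2.24 and -0.62 in SG females and -1.67, -1.21 and -1.66 in SG males. A value of -2.24 is the lowest of the table and stands for no reads. Each YSGr library had 10 to 40 estimated reads, 143 in all, against 0 to 4 in each SG library and 8 in all, with no SG library above a log2 CPM of 0. The log2 fold change was 2.95 (SE 0.36, limma adjusted p = 0.00040), rank 17 of 14147, and the ratio of mean CPM was 17.2. With a pseudocount of 1 CPM in place of the deposited one the fold change was 1.56, since the size of a change from so few reads depends on that constant. The antisense gene Il1bos overlaps Il1b, and without strand their reads cannot be told apart.

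**Figure D2:**
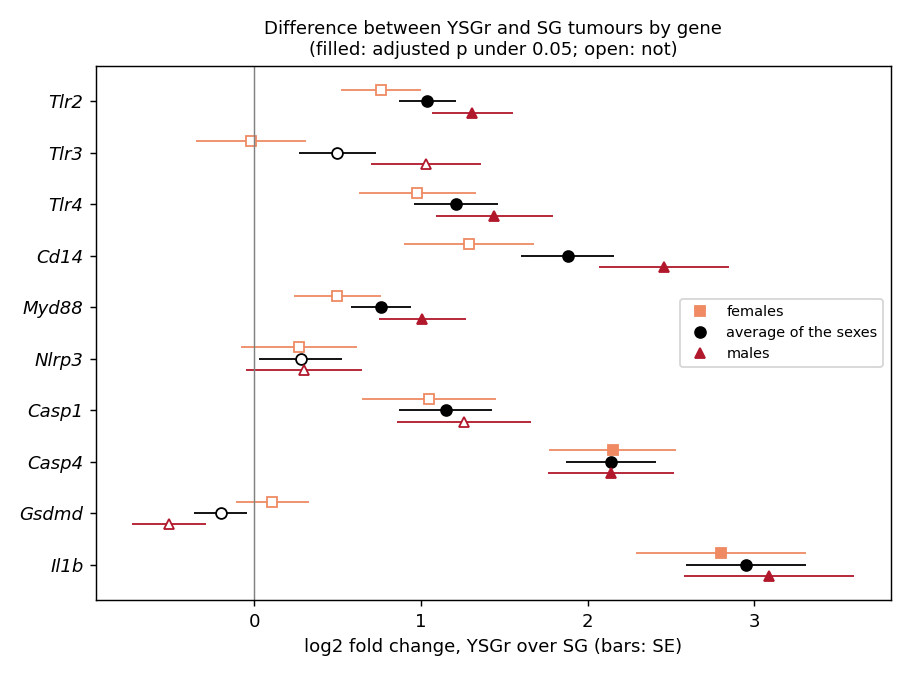
Log2 fold change of YSGr over SG for each gene in females (squares), averaged over the sexes (circles) and in males (triangles), with SE as bars; filled symbols have an adjusted p under 0.05. Casp4 and Il1b are filled in all 3 comparisons, Tlr2, Tlr4, Cd14 and Myd88 in males and in the average, and Casp1 in the average alone.

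The same contrast was then made within each sex, with 3 libraries against 3. In females 2 of the 10 genes rose, Casp4 and Il1b, and 0 fell, against 162 or 1.15% of all genes called higher. In males 6 of the 10 rose (Tlr2, Tlr4, Cd14, Myd88, Casp4 and Il1b) and 0 fell, against 627 or 4.43% of all genes. The 3 YSGr libraries lay above the 3 SG libraries for 7 of the 10 genes in females, all but Tlr3, Nlrp3 and Gsdmd, and for 8 in males, those 7 and Tlr3. For all genes tested these shares were 14.0% in females and 16.3% in males.

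In size, Casp4 differed by 2.15 (SE 0.38, adjusted p = 0.00951) in females and 2.14 (SE 0.38, adjusted p = 0.00908) in males, in limma. Il1b differed by 2.80 (SE 0.51, adjusted p = 0.0118) in females and 3.09 (SE 0.51, adjusted p = 0.0074) in males. The genes called in males and not in females were Cd14, at 1.29 in females and 2.46 in males (adjusted p = 0.106 and 0.00606), Tlr4 at 0.98 and 1.44 (adjusted p = 0.181 and 0.0316), Tlr2 at 0.76 and 1.31 (adjusted p = 0.115 and 0.00981) and Myd88 at 0.50 and 1.01 (adjusted p = 0.406 and 0.0382). The remaining genes stood at 1.05 in females and 1.26 in males for Casp1 (adjusted p = 0.211 and 0.0644), at -0.02 and 1.03 for Tlr3 (adjusted p = 0.990 and 0.0681), at 0.11 and -0.51 for Gsdmd (adjusted p = 0.903 and 0.143) and at 0.27 and 0.30 for Nlrp3 (adjusted p = 0.829 and 0.582). Without SG male 2 the male values of Tlr3 and Gsdmd were 0.57 and -0.29 (adjusted p = 0.152 and 0.370), and without SG male 3 that of Nlrp3 was 0.04 (adjusted p = 0.952). Without YSGr female 12 the female value of Myd88 was 0.32 (adjusted p = 0.666). Leaving out 1 library ended the female call of Il1b in 3 cases, without SG female 4 (2.53, adjusted p = 0.0577), SG female 5 (2.53, adjusted p = 0.0721) or YSGr female 10 (2.75, adjusted p = 0.0592). The male calls of Tlr4 and Myd88 were lost in 8 and 9 of the 12 fits that left out 1 library, with adjusted p up to 0.0931 and 0.0970, and both were lost after quantile normalization (adjusted p = 0.0695 and 0.123). With library weights Tlr2, Tlr4, Cd14 and Casp1 also passed in females, at 1.09, 1.46, 1.31 and 1.41 (adjusted p = 0.00025, 0.00043, 0.00309 and 0.00683), and Casp1 in males (1.40, adjusted p = 0.0417). These weights made calls common, with 2225 of all 14147 genes called higher in females and 1299 in males. The main fit called 162 and 627.

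Whether the sexes differed in this effect was tested directly, as the female minus the male log2 fold change. In limma 0 of the 10 genes passed the threshold, against 1 gene or 0.00707% of all tested, so a call in males that was missed in females is not shown to differ between them. At an unadjusted p under 0.05 there were 1634 of all 14147 genes and 1 of the 10, Tlr3 at -1.06 (SE 0.47, unadjusted p = 0.0424, adjusted p = 0.429). Cd14 was at -1.17 (SE 0.55, adjusted p = 0.430), Gsdmd at 0.62 (SE 0.31, adjusted p = 0.439) and Tlr2 at -0.55 (SE 0.33, adjusted p = 0.488). Casp4 was at 0.02 (SE 0.53) and Nlrp3 at -0.03 (SE 0.50).

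Females were also set against males within a genotype. In YSGr, 0 of the 10 genes passed in limma, against 11 genes or 0.0778% of all tested. At an unadjusted p under 0.05 there were 2566 of all 14147 genes and 3 of the 10. These were Gsdmd, higher in females by 0.85 (SE 0.22, unadjusted p = 0.00205, adjusted p = 0.142), Cd14 at -1.12 (SE 0.39, unadjusted p = 0.0135, adjusted p = 0.185) and Tlr3 at -0.86 (SE 0.33, unadjusted p = 0.0226, adjusted p = 0.214). The 3 females were all above the 3 males for Gsdmd, all below them for Tlr3, Cd14 and Nlrp3, and overlapped with them for the other 6 genes. For Nlrp3 the split is narrow, with 11 estimated reads in both female 11 and male 8. The share of all genes split by sex within a genotype was not computed, so these patterns are descriptions only. In SG, 0 of the 10 passed, against 5 genes or 0.0353% of all tested. At an unadjusted p under 0.05 there were 259 of all 14147 genes and 0 of the 10. Females and males of SG overlapped for all 10 genes.

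Levels can be compared between genes only per length, as CPM per kilobase of annotated exon. In YSGr the order was Gsdmd (4.08 ± 1.33), Tlr2 (3.21 ± 0.812), Cd14 (3.12 ± 1.55), Casp1 (2.32 ± 0.730), Tlr3 (2.10 ± 0.701), Myd88 (2.00 ± 0.347), Casp4 (1.71 ± 0.592), Il1b (1.30 ± 0.534), Tlr4 (0.927 ± 0.254) and Nlrp3 (0.275 ± 0.0631), each as mean ± SD of 6 libraries. In SG it was Gsdmd (4.56 ± 0.939), Tlr2 (1.49 ± 0.139), Tlr3 (1.46 ± 0.422), Myd88 (1.16 ± 0.217), Casp1 (0.976 ± 0.338), Cd14 (0.696 ± 0.219), Tlr4 (0.379 ± 0.108), Casp4 (0.332 ± 0.0827), Nlrp3 (0.218 ± 0.0671) and Il1b (0.0758 ± 0.0868). Most neighbours in either order differed by less than the larger of their SDs. In YSGr the step from Tlr4 down to Nlrp3 was wider than that, and in SG so were the steps from Gsdmd to Tlr2, from Cd14 to Tlr4, from Casp4 to Nlrp3 and from Nlrp3 to Il1b. Gsdmd had the highest mean in both genotypes and Nlrp3 was among the lowest 2.

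**Figure D3:**
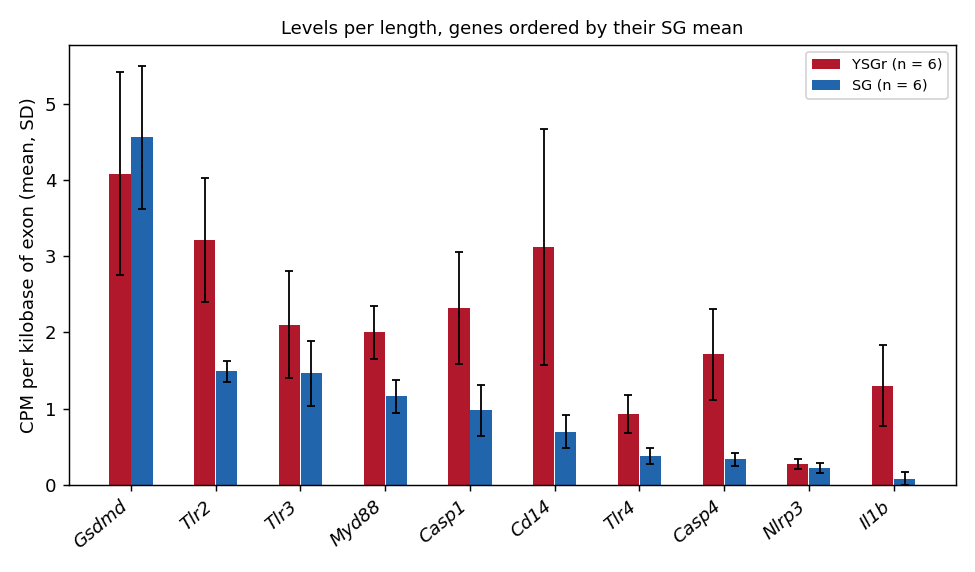
Mean CPM per kilobase of exon with SD in YSGr (left bar) and SG (right bar), 6 libraries each, with genes ordered by their SG mean. Gsdmd had the highest mean in both genotypes at 4.08 in YSGr and 4.56 in SG, and Il1b had the lowest in SG at 0.0758 against 1.30 in YSGr.

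The genes did not vary in step across the YSGr libraries. Among these, female 12 was lowest for Tlr2, Tlr3, Cd14 and Il1b, and female 11 was lowest for Tlr4, Myd88, Casp1 and Casp4. Female 10 was highest for Tlr4, Casp4 and Gsdmd and lowest for Nlrp3, and male 9 was highest for Cd14, Nlrp3 and Il1b. The mean log2 CPM of the 7 genes called was 2.42, 1.99 and 1.87 in YSGr females and 2.57, 2.44 and 2.58 in YSGr males, against 0.58, 0.65 and 0.96 in SG females and 0.80, 0.84 and 0.51 in SG males. Of the libraries that stood apart over all genes, YSGr male 8, YSGr female 10 and SG male 2 had a mean inside the range of the other libraries of their genotype, and YSGr female 12 had the lowest mean of YSGr. In the averaged contrast 6 of the 10 genes were called without YSGr female 10 and 7 without YSGr female 12. Among all genes, 561 of 14108 and 1197 of 14127 were called higher in these 2 fits. Without both YSGr male 8 and SG male 2, an alternative chosen after seeing the data, 7 of the 10 genes were called in the averaged contrast, 2 in females and 4 in males. Of all 14034 genes tested in that setting, 954, 555 and 139 were called higher in these contrasts.

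For each of the 10, the gene whose log2 CPM followed it most closely over the 12 libraries was found by Pearson's r, as a description in which the points share the difference between genotypes. Tlr2 was followed most closely by Gpnmb (0.971), Casp4 by the lysozyme gene Lyz2 (0.974), Il1b by the serglycin gene Srgn (0.972), Cd14 by Ly6a (0.967), Tlr4 by the schlafen gene Slfn8 (0.963) and Casp1 by Clec5a (0.922), a receptor of myeloid cells. Myd88 was followed by Spint1 (0.909). Slfn8 and Spint1 were low in SG, at -2.24 to -0.08 and -1.66 to 0.17 log2 CPM. Nlrp3, Tlr3 and Gsdmd, which did not pass in the main comparison, were followed by genes that did not pass either. These were the apolipoprotein gene Apoc1 (0.870), the methyltransferase gene Setd7 (0.973) and the transporter gene Slc29a4 (0.943). Within a genotype these values rest on 6 libraries and some were lower, at 0.97 in YSGr and 0.51 in SG for Tlr2 and Gpnmb, 0.92 in YSGr and 0.51 in SG for Casp4 and Lyz2, and 0.55 in YSGr and 0.74 in SG for Myd88 and Spint1. For the other 7 pairs they lay between 0.72 and 0.99.

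The rest of the pathway was read from 9 further lists of 90 genes, of which 86 were in the table and 78 were tested. In the averaged contrast 14 of the 78 rose and 4 fell, against 6.16% of all genes called higher and 5.27% called lower, and the 4 that fell are about the share of all genes. Of the 14, Nlrc4, Nlrc5, Il1rn and Il1r2 passed the filter on low values only through YSGr. The 78 had a median log2 fold change of 0.20, against 1.10 for the 10 genes and -0.005 for all genes. The 10 genes and these lists were chosen with earlier results of these data known, so their shares and medians are descriptions and no test. In females 3 rose (Ly86, Il1rn and Il18bp) and 0 fell, against 1.15% and 1.87% of all genes. In males 7 rose and 2 fell (Tlr12 and, named outside the rule, Tab1), against 4.43% and 3.42% of all genes. The difference between the sexes passed for 0 of the 78 in limma.

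The counts of each list below stand beside 6.16% of all genes called higher and 5.27% called lower. Of the other Toll-like receptors, 0 of 8 rose and 1 fell (median 0.42). The 1 was Tlr12, a sensor of the protein profilin of parasites, at 0.12 ± 0.34 log2 CPM in YSGr and 1.27 ± 0.23 in SG (SD, n = 6 each), a log2 fold change of -1.16 (SE 0.23, limma adjusted p = 0.00626). Of 7 co-receptors and chaperones 1 rose and 1 fell (median 0.21). Ly86, which encodes MD-1, the partner of the receptor Cd180, rose by 1.59 (SE 0.21, adjusted p = 0.00052), with 96 to 303 reads per YSGr library and 50 to 77 per SG library. The scavenger receptor gene Cd36, also expressed by endothelial cells, was at -1.04 (SE 0.30, adjusted p = 0.0441).

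The adaptors and kinases below the receptors stayed closer to the median of all genes, at -0.06, and 1 of 16 rose and 1 fell. The kinase gene Ikbke rose by 1.00 (SE 0.27, limma adjusted p = 0.0308). Irak1, the kinase recruited to Myd88, was at -0.31 (SE 0.09, adjusted p = 0.0416), with 622 to 809 reads per YSGr library and 753 to 898 per SG library. Of the 8 inhibitors of the pathway 0 rose and 0 fell (median 0.01), and the most abundant, Tollip, was at 0.02 (SE 0.09, adjusted p = 0.906).

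On the inflammasome side, 3 of 7 other sensors and adaptors rose and 0 fell (median 0.64). Aim2, a sensor of cytosolic DNA, rose by 1.21 (SE 0.35, limma adjusted p = 0.0389), with 11 to 109 reads per YSGr library and 15 to 20 per SG library, so that the genotypes overlapped. Nlrc4, the platform of the flagellin inflammasome, rose by 1.01 (SE 0.30, adjusted p = 0.0441) on 4 to 12 reads per YSGr library and 1 to 7 per SG library, and Naip2, a sensor that works with it, by 0.76 (SE 0.23, adjusted p = 0.0485). Pycard, which encodes the adaptor ASC that joins sensors to caspase-1 and is named here after its value was seen, was at 0.13 (SE 0.16, adjusted p = 0.620). Of 9 triggers and modulators 3 rose and 0 fell (median 0.25), namely the interferon-inducible guanylate-binding protein genes Gbp5 at 1.71 (adjusted p = 0.00626) and Gbp2 at 1.47 (adjusted p = 0.00754) and the cathepsin gene Ctsb at 0.39 (adjusted p = 0.0342).

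Of 6 genes of Nod receptors and their relatives 2 rose and 0 fell (median 0.48), Nlrc5, the transactivator of MHC class I genes, at 1.62 (SE 0.38, limma adjusted p = 0.0157) and Nlrc3 at 0.88 (SE 0.25, adjusted p = 0.0391). Of 9 other caspases and gasdermins 0 rose and 1 fell (median -0.14), the executioner caspase gene Casp6 at -0.59 (SE 0.16, adjusted p = 0.0309).

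In the interleukin-1 family 4 of 8 rose and 0 fell (median 0.69), but Il1rn and Il1r2 passed the filter only through YSGr, which in part fixed their calls. Il1rn, which encodes the antagonist that occupies the interleukin-1 receptor, had 10 to 38 reads per YSGr library, against 1 to 3 per SG library, and rose by 2.37 (SE 0.28, limma adjusted p = 0.00029). Il1r2, the decoy receptor, rose by 1.57 (SE 0.40, adjusted p = 0.0246) on 1 to 14 reads per YSGr library and 0 to 2 per SG library. The signalling receptor gene Il1r1 rose by 0.98 (SE 0.18, adjusted p = 0.0037) and Il18bp, which encodes a soluble binder of interleukin-18, by 0.76 (SE 0.15, adjusted p = 0.00719). The genes called in this list were 1 signalling receptor and 3 that encode an antagonist, a decoy or a binding protein. The calls of the antagonist and the decoy are those that the filter in part fixed. The 4 tested genes not called, named outside the rule, were Il1a (0.634, limma adjusted p = 0.0677), Il33 (0.235), Il1rap (0.144) and Il18 (-0.137).

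**Figure D4:**
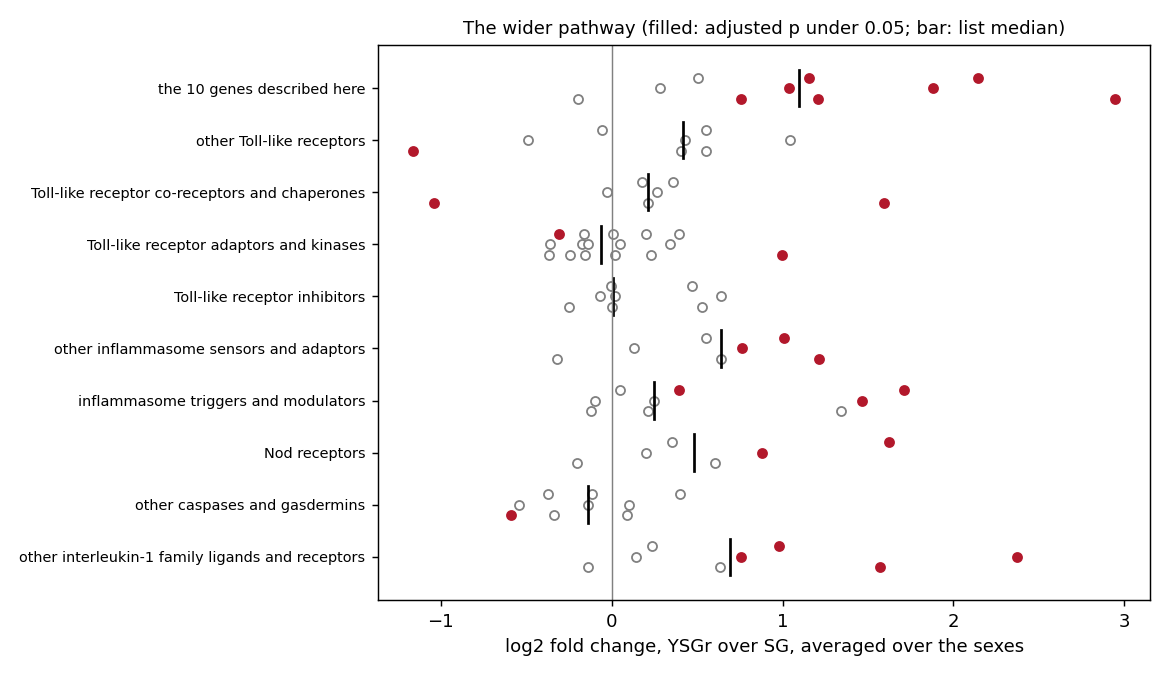
Log2 fold change of YSGr over SG, averaged over the sexes, of every tested gene (circles) in the 10 genes described and in 9 further lists, with filled circles for an adjusted p under 0.05 and a bar at each list's median. The 10 genes have a median of 1.10, and the medians of the other lists lie between -0.14 for other caspases and gasdermins and 0.69 for the interleukin-1 family.

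Markers of myeloid cells were measured beside these genes, and 6.16% of all genes were called higher and 5.27% lower. The 14 microglia markers summed to 473 to 633 CPM in YSGr and 502 to 564 CPM in SG, and 1 of 14 rose (Itgam, 0.84, limma adjusted p = 0.0143) and 1 fell (Gpr34, -0.63, adjusted p = 0.0148). Both counts are near the share of all genes. The 14 macrophage and monocyte markers summed to 475 to 871 CPM in YSGr and 224 to 289 CPM in SG, without overlap. Abundant genes weigh most in this sum, among them Lyz2 at 7.79 to 9.0 log2 CPM in YSGr and 6.52 to 7.29 in SG. Of the 12 tested, 6 rose and 0 fell, among them Ccr2 (2.63, adjusted p = 0.00198), Lgals3 (2.48, adjusted p = 0.00012) and Gpnmb (1.98, adjusted p = 2.4e-05). The 6 not called, named outside the rule, were Mrc1 (0.123), Cd163 (0.22), Cd68 (0.388), Itga4 (0.407), Fcgr1 (0.466) and Arg1 (1.115). The neutrophil markers, of which 7 of 12 were in the table, summed to 16.6 to 42.5 CPM in YSGr and 10.6 to 14.8 CPM in SG, and all 5 tested rose, S100a8 (2.22, adjusted p = 0.0116), Csf3r (0.56, adjusted p = 0.0240), S100a9 (3.08, adjusted p = 0.00068), Mmp9 (2.64, adjusted p = 0.00102) and Cxcr2 (2.62, adjusted p = 0.00076). Of these 5, S100a8, S100a9, Mmp9 and Cxcr2 had no SG library above a log2 CPM of 0 and passed the filter only through YSGr, as did Ccr2, so their calls were in part fixed by the filter. Ltf, a defining gene of neutrophil granules, had 0 reads in all SG libraries, but it was too low over the 12 libraries to be tested. Ly6g, Retnlg, Elane, Camp, Ngp and Mpo were not tested either. They were absent from the table or above a log2 CPM of 0 in fewer than 3 libraries.

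By library, the macrophage and monocyte markers summed to 782, 475 and 537 CPM in YSGr females and 871, 777 and 613 CPM in YSGr males, against 226, 224 and 230 CPM in SG females and 256, 289 and 233 CPM in SG males. YSGr females 11 and 12, with the lowest sums of YSGr, were also the 2 YSGr libraries with the lowest mean of the 7 genes called. The order did not match further, since male 9, at 613 CPM, had the highest mean (2.58 log2 CPM). Female 11 had a lower sum than female 12 but a higher mean (1.99 against 1.87). For neutrophil markers female 11, at 34.3 CPM, was above males 7 and 9 (32.7 and 32.6 CPM). The sums of the macrophage and of the neutrophil markers were higher in every YSGr library than in any SG library, and the microglia sum overlapped between genotypes. The part of these cell types in the differences of Tlr2, Tlr4, Cd14, Myd88, Casp1, Casp4 and Il1b was not tested.

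**Figure D5:**
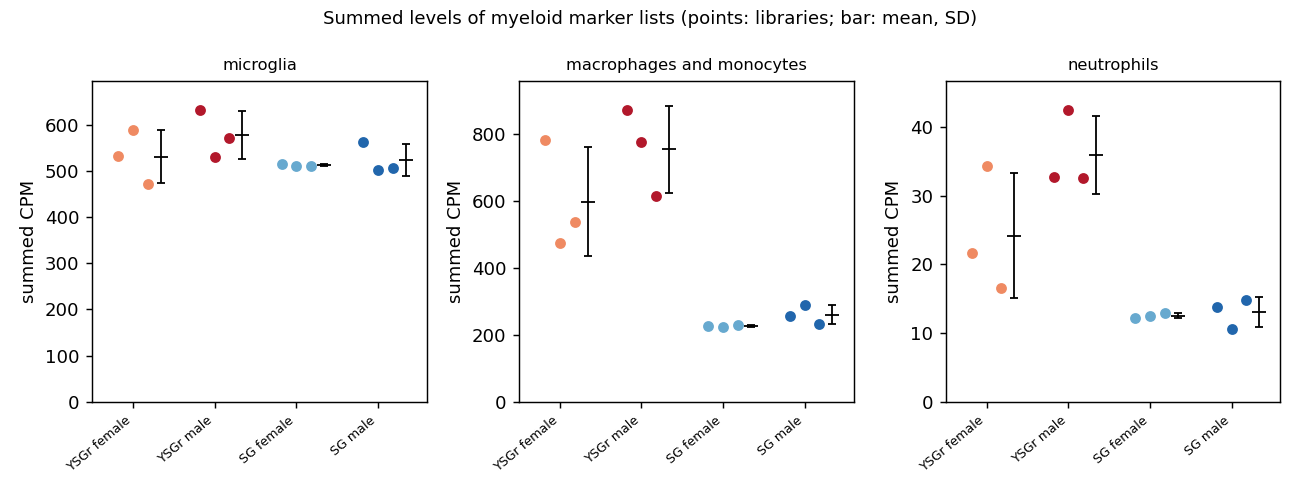
Summed CPM of the marker lists of microglia, of macrophages and monocytes, and of neutrophils in each library (points), with mean and SD of each group of 3 (bars). Macrophage and monocyte markers lay at 475 to 871 CPM in YSGr, all above the 224 to 289 CPM of SG, while microglia markers overlapped between the genotypes.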

How the data were processed

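RNA of medulloblastoma tissue was isolated with Trizol-type reagent and read on a BGISEQ-500, per the labels' protocols, giving 12 libraries. The authors deposited 1 table of log2 CPM. Per the submitters' processing notes, Trimmomatic 0.33, RSEM 1.2.12, Bowtie2, Picard 1.95, edgeR 3.30.3 and build mm10 were used. Which step each served, the gene models, strand handling and any filter were not given in the sources used here. The deposited log2 values include a prior count averaging 2 reads, which understates the change of low genes. Reads per gene were estimated from the steps between values and 92.8 to 94.3% of them lay within 0.02 reads of a whole number.

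One coefficient per group of 3 libraries was fitted with limma 3.58.1 (R 4.3.3, statmod 1.5.0) on the deposited values, with a mean-variance trend, two-sided tests and Benjamini-Hochberg adjustment over 14147 genes at a threshold of 0.05. The fit was tested on simulated data. Replicate numbers run on through the 12 libraries, so they give no pairing. Coordinates, overlaps and exon lengths are from GENCODE M21 on GRCm38, and promoter windows from RefSeq on GRCm38.p6. The 10 genes and all lists were chosen with earlier results of these data known. Genes named are the 10, up to 4 called genes of a pathway list by size of change (or, with none, the most abundant), up to 3 of a marker list, Yap1, and the gene most alike to each of the 10. The alternatives were other filters, a pseudocount of 1 CPM, quantile or median normalization, library weights, no variance trend, fits on fewer groups, and each library left out.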

Additional observations from a re-analysis of the deposited data

Results flagged for a closer look

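Within the 6 libraries of a genotype, 3 of the 10 genes had 1 library far from the others, by a ratio of its gap to the whole range above 0.625. Tlr3 was at 1.87 log2 CPM in SG male 2, against 2.97 to 3.29 in the other 5 SG libraries. Myd88 was at 1.07 log2 CPM in SG male 3, against 1.66 to 1.87 in the others. Nlrp3 was at -0.25 log2 CPM in YSGr female 10, a value that rests on 6 estimated reads, against 0.40 to 0.64 in the other YSGr libraries. Chance flags about 1 in 20 groups, and 20 groups were examined. SG male 2 and YSGr female 10 also stood apart over all genes.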

How the results depend on the processing

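Of 627 recomputed fold changes of the 10 genes, 585 kept their direction and their side of the threshold, 32 lost the call, 6 gained it and 4 reversed. The reversals were of values near 0 that passed in neither fit: Tlr3 in females at 0.21 with library weights and 0.20 without YSGr female 12, and Nlrp3 at -0.06 in females with library weights and -0.12 in males after quantile normalization. In the averaged contrast Tlr2, Tlr4, Cd14, Casp4 and Il1b were called without each of the 12 libraries in turn. Library weights gave 6 calls among the 10 in females and 1, Gsdmd, between the sexes of YSGr. They gave 4986, 4483 and 2326 calls over all genes in the averaged, female and male contrasts, 675 for the difference between the sexes, and for females against males 1819 in YSGr and 28 in SG. With only the 6 libraries compared, these were 761 in females, 318 in males and 7 between the sexes of YSGr. Without SG male 2 and YSGr male 8 (chosen after seeing the data) they were 1268, 245 and 19. Leaving out 1 library gave 900 (without SG female 6) to 2088 calls in the averaged contrast, 94 (without SG female 6) to 785 (without SG male 2) in females, and 286 (without YSGr male 8) to 1662 in males. It gave 1 to 119 for the difference between the sexes and 9 to 1026 between the sexes of YSGr, with 119 and 1026 without YSGr female 11. Among the 10 genes it left 1 to 2 calls in females, and Tlr3 at -0.19 to 0.20 there. The cause of these changes was not tested. Nlrp3 dropped out with a filter at log2 CPM above 1. Reads were fewest for Nlrp3 and, in SG, Il1b, with at most 13 and 4 in a library. No paired analysis was possible because the labels give no pairing or animal number.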

Other observations

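Markers of other cells of the tumour were read for the same libraries, beside 6.16% of all genes called higher and 5.27% called lower. Of 10 endothelial markers 1 rose (Vwf, 0.58) and 5 fell in YSGr (Kdr, Cldn5, Esam, Tie1 and Cdh5), with Kdr, a receptor of vascular endothelial growth factor, at -1.55 (SE 0.22, limma adjusted p = 0.00083), and Cldn5, a tight junction gene of the blood-brain barrier, at -1.11 (SE 0.21, adjusted p = 0.00482). The list summed to 70.1 to 118 CPM in YSGr and 98.7 to 163 CPM in SG. Of 12 granule neuron progenitor markers 0 rose and 5 fell (Hes6, Gli1, Ccnd1, Atoh1 and Barhl1), with the Hedgehog target Gli1 at -0.82 (SE 0.13, adjusted p = 0.00185) and the cyclin gene Ccnd1 at -0.60 (SE 0.10, adjusted p = 0.00324). Of 8 astrocyte markers 1 rose, Gfap at 0.98 (SE 0.22, adjusted p = 0.0139), and 1 fell, Sox9 at -0.52 (SE 0.10, adjusted p = 0.00554), and their sums overlapped, at 1410 to 2990 CPM in YSGr and 1580 to 2720 CPM in SG.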
